A study of Mus musculus with 22 samples.

Results

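The genes described here were 42 complement and coagulation factors, chosen by symbol from a table of 55573 genes. They comprised 37 factors made by hepatocytes, the 3 chains of C1q, which are made by macrophages, and 2 further complement factors made outside hepatocytes, properdin (Cfp) and factor D (Cfd). Complement is a cascade of plasma proteins in which recognition proteins switch on serine proteases, the proteases cleave C3, and the terminal components assemble a pore in the target membrane. Coagulation is a parallel cascade in which proteases act in turn to form thrombin, and thrombin turns fibrinogen into fibrin. The hepatocyte is the main source of both sets of plasma proteins, so their mRNA is abundant in liver, whereas C1q mRNA in liver comes from Kupffer cells and other macrophages.

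Liver mRNA was sequenced from 22 C57BL/6 mice, with 1 library for each mouse. Cre mice carried wild-type Flcn alleles and Albumin-Cre, and liver-Flcn-/- mice (KO) carried floxed Flcn and Albumin-Cre, so both genotypes expressed the recombinase under the albumin promoter, which is active in hepatocytes. There were 6 Cre and 5 KO mice on a chow diet with 10 kcal percent fat, and 5 Cre and 6 KO mice on a methionine- and choline-deficient (MCD) diet, started at 6 weeks of age and given for 6 weeks. Counted reads ranged from 15276157 to 19417246 per library in Cre mice on chow, from 18201287 to 21144388 in Cre mice on MCD, from 13751347 to 19645473 in KO mice on chow and from 16616132 to 20706657 in KO mice on MCD. Levels are given as CPM, the count of a gene scaled to library size with TMM factors, and changes as log2 fold changes ± standard error. The TMM factors were 0.8155 to 0.9686 in chow livers and 1.06 to 1.197 in MCD livers. A gene with an equal share of raw counts on both diets therefore has a lower CPM on MCD. Small diet changes, and the lack of a call between diets, depend on this scaling. A gene was called when its Benjamini-Hochberg adjusted p from edgeR's quasi-likelihood test, over all 14062 genes with a mean of at least 10 counts, was under 0.05. Of the 42 members 41 were tested, and Cfd was too low.

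Flcn, the deleted gene, was measured at 26.1 to 40.2 CPM in Cre mice on chow and at 24.2, 20, 16.7, 19.4 and 21.8 CPM in KO mice on chow. These groups did not overlap, and Flcn was lower in KO mice by -0.63 ± 0.17 (adjusted p = 0.025). On MCD it was at 31.8, 18.2, 39.9, 32.5 and 23.6 CPM in Cre mice and at 17.6 to 32.6 CPM in KO mice, and the difference of -0.16 ± 0.17 was not called (adjusted p = 0.57). The recombinase removes a single exon in hepatocytes, so other liver cells keep intact Flcn and shortened transcripts can still be counted.

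Some libraries stood apart. Xist, the RNA of the inactive X chromosome, was counted 1000 times or more in 12 livers and at most 19 times in the other 10, while the labels gave no sex. Livers without Xist RNA were 3 of 6 Cre and 2 of 5 KO mice on chow, and 2 of 5 Cre and 3 of 6 KO mice on MCD. The 5 chow livers without Xist RNA were also the 5 libraries with a low share of uniquely mapped reads, so on chow these properties cannot be told apart. A pair of livers with Xist RNA, Cre MCD 1 and KO chow 2, held 15.6 CPM of the Y-linked gene Ddx3y. The library of Cre MCD 3 held 3610 CPM summed over 15 skeletal muscle genes, against at most 177.5 CPM in the other 21. Its 12 hepatocyte markers summed to 125900 CPM, above the mean of its group.

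On the MCD diet the hepatocyte-made complement and coagulation genes fell together in both genotypes. In Cre mice 34 of 37 were called lower than on chow and none was called higher, and in KO mice 35 of 37 were called lower and none higher. Their median log2 fold change was -1.04 in Cre mice and -1.04 in KO mice, beside 0.01 and 0.00 over all genes tested. Of all genes tested, 28.2% were called lower on MCD in Cre mice and 22.5% in KO mice (57.5% and 45% in either direction, 29.3% and 22.5% higher). Called falls of more than 2-fold numbered 22 of 37 in Cre mice and 19 in KO mice, beside 1255 and 1027 of all 14062 genes tested. As a share of raw counts, without TMM factors, the 42 members took 4.49% ± 0.315 (SD, n = 6) in Cre mice on chow and 3.22% ± 0.15 (SD, n = 5) on MCD. In KO mice they took 4.48% ± 0.375 (SD, n = 5) against 2.84% ± 0.328 (SD, n = 6). In bulk tissue, fewer cells of a type and less RNA per cell cannot be told apart. Of 12 hepatocyte marker genes, 7 were called lower in Cre mice, and 7 lower and 1 higher in KO mice. Their sum, in which albumin was the most abundant gene, went from 156400 ± 20080 to 111300 ± 17390 CPM (mean ± SD) in Cre mice and from 129700 ± 20930 to 96040 ± 10440 CPM in KO mice, and the part of this in the falls was not tested.

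**Figure D1:**
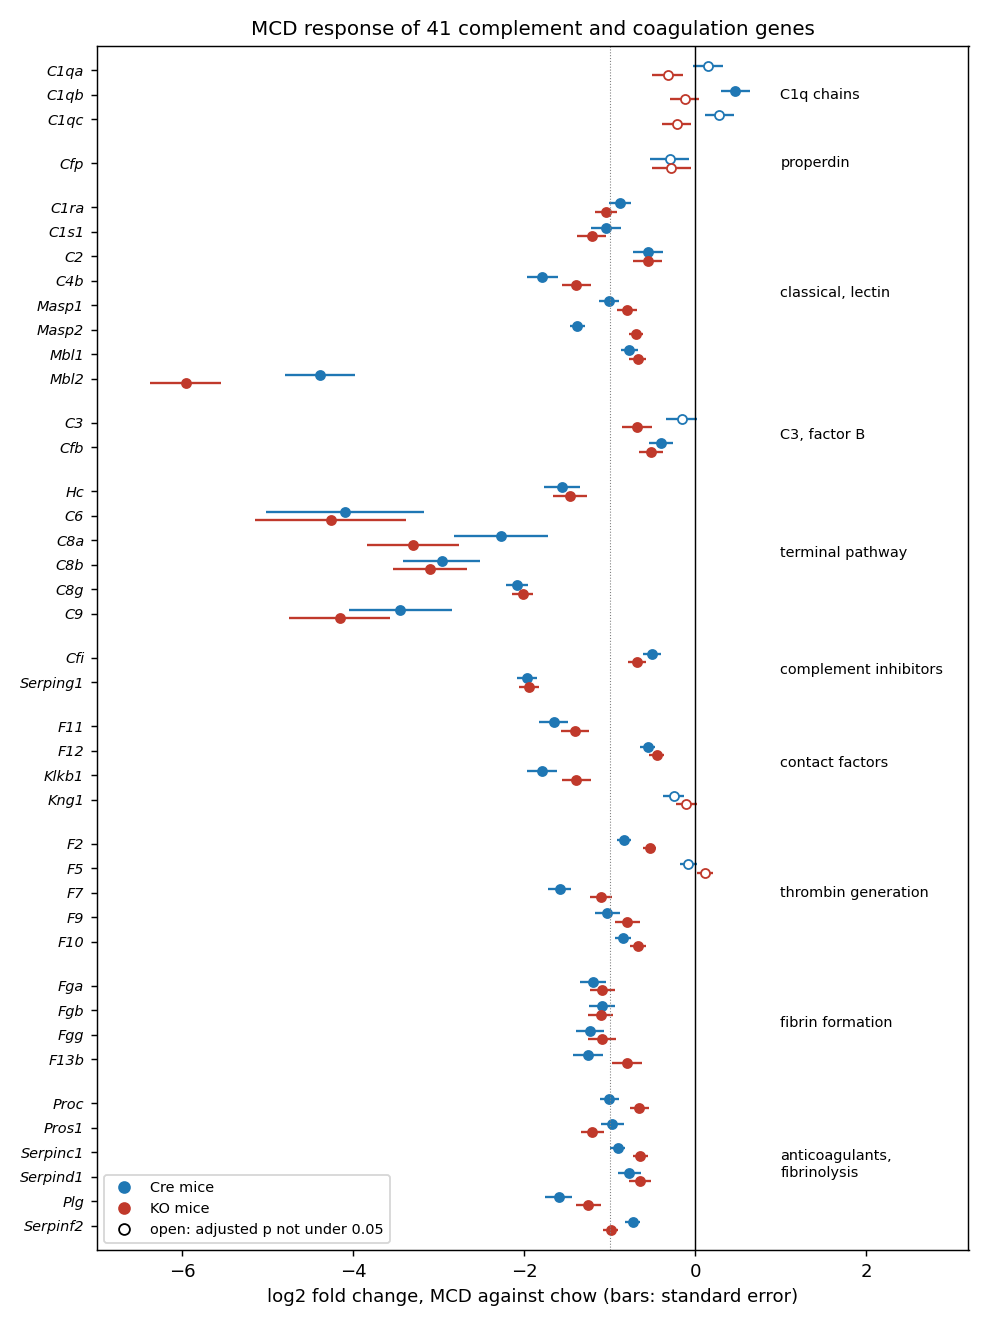
Log2 fold change on MCD against chow (x axis) of the 41 tested members (y axis), in Cre mice (blue) and KO mice (red). Bars are standard errors, open points have an adjusted p not under 0.05 and the dotted line marks a 2-fold fall. Hepatocyte-made genes lie left of 0 with few exceptions, Mbl2 lies farthest left, and the C1q chains, F5 and Kng1 lie near 0.

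Ranges on MCD and chow did not overlap for 30 members in Cre mice and 32 in KO mice, all of them lower on MCD and all hepatocyte-made. Among all genes tested, 16.9% in Cre mice and 14.8% in KO mice were lower on MCD without overlap (32.5% and 29.2% in either direction, 15.6% and 14.4% higher). The 18 hepatocyte-made complement genes had medians of -1.47 in Cre mice and -1.30 in KO mice, and the 19 coagulation and fibrinolysis genes had medians of -1.0 and -0.80. Per kilobase of exon in Cre mice on chow, the most abundant members were the fibrinogen chains Fgg (2345 CPM per kb), Fga (2214) and Fgb (1779), then C3 (1702), plasminogen (988.2), kininogen (872), Mbl2 (678.4) and prothrombin (532.5).

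Of the recognition proteins of the lectin pathway, mannose-binding lectin C (Mbl2, chr19:30232942-30239687, GRCm38, plus strand) fell farthest of the 41 members tested, in both genotypes. It was measured at 497.3 to 985.8 CPM (median 736 CPM) in Cre mice on chow and at 41.4, 55.6, 26.2, 19.9 and 33.4 CPM on MCD. In KO mice it was at 415.6, 831.8, 453, 782.6 and 854.7 CPM on chow and at 3.44 to 14.9 CPM (median 13.3 CPM) on MCD. No MCD liver reached a chow liver, and the fall was 20.9-fold in Cre mice (log2 fold change -4.39 ± 0.41, adjusted p = 1.4e-08) and 62.3-fold in KO mice (-5.96 ± 0.41, adjusted p = 3.9e-10). Its relative mannose-binding lectin A (Mbl1), which also binds sugars on microbes, changed by -0.77 ± 0.10 and -0.67 ± 0.10. Per kilobase of exon, Mbl2 stood at 4.23 ± 1.5 (SD, n = 6) times Mbl1 in Cre mice on chow and at 0.361 ± 0.197 (SD, n = 5) times on MCD. In KO mice it stood at 3.97 ± 1.75 (SD, n = 5) and 0.097 ± 0.0477 (SD, n = 6) times Mbl1.

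All 8 genes of the classical and lectin step were called lower in both genotypes, with medians of -1.02 and -0.92. The proteases that C1q carries, C1ra and C1s1, changed by -0.87 ± 0.13 and -1.04 ± 0.18 in Cre mice and by -1.04 ± 0.13 and -1.21 ± 0.17 in KO mice. Masp1 and Masp2, the proteases that mannose-binding lectins carry, changed by -1.0 ± 0.12 and -1.38 ± 0.089 in Cre mice and by -0.79 ± 0.12 and -0.69 ± 0.086 in KO mice. C4b, whose product forms the classical C3 convertase with that of C2, was at 1065 to 1480 CPM (median 1266 CPM) in Cre mice on chow and at 404.4, 347.9, 425.1, 320.3 and 334.9 CPM on MCD, changes of -1.78 ± 0.18 in Cre mice and -1.39 ± 0.17 in KO mice. C2 changed by -0.55 ± 0.17 and -0.56 ± 0.17, and without the 5 chow libraries of low uniquely mapped share its fall was no longer called in either genotype (adjusted p = 0.16 and 0.11), nor was it in Cre mice among livers without Xist RNA alone (-0.30, adjusted p = 0.27). Reads of C4b, C1ra and C1s1 can be shared with the near-identical C4a, C1rb and C1s2, so the split between these copies is uncertain.

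C3, the protein on which all complement pathways converge, was measured at 5751 to 11320 CPM (median 8582 CPM) in Cre mice on chow and at 7838, 8166, 8740, 7897 and 6588 CPM on MCD. These ranges overlapped, and the difference of -0.16 ± 0.18 was not called (adjusted p = 0.46). In KO mice C3 was at 5103, 10970, 7481, 9062 and 8153 CPM on chow and at 4005 to 6027 CPM (median 5111 CPM) on MCD, a change of -0.68 ± 0.18 (adjusted p = 0.0034). The KO ranges overlapped through the chow liver at 5103 CPM, and among livers without Xist RNA alone the change was -0.35 and not called (adjusted p = 0.34). Factor B (Cfb), the protease of the alternative pathway, was lower by -0.39 ± 0.14 in Cre mice (adjusted p = 0.021) and by -0.52 ± 0.14 in KO mice (adjusted p = 0.0046). The call in Cre mice was lost without Cre chow 1, Cre MCD 2 or Cre MCD 5 (adjusted p = 0.057, 0.072 and 0.066) and with only the Cre groups in the fit (adjusted p = 0.059), and among livers without Xist RNA alone Cfb was called in neither genotype (-0.15 and -0.39, adjusted p = 0.60 and 0.21). Per kilobase of exon, C3 stood at 7.63 ± 1.53 (SD, n = 6) times C4b in Cre mice on chow and at 23.9 ± 2.63 (SD, n = 5) times on MCD, and at 7.42 ± 2.69 (SD, n = 5) and 12.2 ± 2.42 (SD, n = 6) times in KO mice.

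The 6 genes of the terminal pathway, whose proteins C5 (encoded by Hc), C6, C8 and C9 build the membrane pore, had the lowest median of the roles described, -2.62 in Cre mice and -3.20 in KO mice. With all 22 livers in the fit each of the 6 was called lower in both genotypes and fell by more than 2-fold. C6 (chr15:4727175-4814967) was at 21.2 to 692.8 CPM (median 239.6 CPM) in Cre mice on chow and at 11.4, 8.53, 32.9, 20.5 and 8.04 CPM on MCD, and at 430.1, 98.8, 481.2, 48.4 and 23.9 CPM on chow and 7.41 to 20.4 CPM (median 9.64 CPM) on MCD in KO mice. The chow livers were spread widely, and in Cre mice the lowest chow livers lay within the MCD range. The fall of C6 was 17.1-fold in Cre mice (-4.10 ± 0.93, adjusted p = 7.5e-04) and 19.2-fold in KO mice (-4.26 ± 0.88, adjusted p = 4.8e-04). Without the 5 chow libraries of low uniquely mapped share it was not called in Cre mice (-0.98, adjusted p = 0.092) and was -2.34 in KO mice.

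C9, the unit repeated around the pore, was at 284.2 to 1470 CPM (median 822.7 CPM) in Cre mice on chow and at 103.3, 21.3, 100.8, 106.4 and 46.3 CPM on MCD. In KO mice C9 was at 1168, 533.2, 1488, 369.5 and 385.7 CPM on chow and at 25.1 to 114 CPM (median 32.6 CPM) on MCD. Within each genotype every MCD liver was below every chow liver, a fall by 10.9-fold in Cre mice (-3.45 ± 0.61, adjusted p = 5.6e-05) and by 17.9-fold in KO mice (-4.16 ± 0.59, adjusted p = 7.9e-06). Of the 3 chains of C8, the gamma chain C8g was even among chow livers of Cre mice, at 453 to 506 CPM (median 487.2 CPM), and changed by -2.09 ± 0.13 in Cre mice and -2.02 ± 0.12 in KO mice. C8a and C8b, which lie side by side on chromosome 4, changed by -2.27 ± 0.55 and -2.97 ± 0.46 in Cre mice and by -3.30 ± 0.54 and -3.10 ± 0.44 in KO mice. C8a was not called in Cre mice without the 5 chow libraries (-0.42, adjusted p = 0.17) or among livers with Xist RNA alone (-0.59, adjusted p = 0.12). Other falls were still called but smaller without these 5 libraries, at -2.14 for C9 and -1.57 for C8b in Cre mice and at -2.33 for C8a, -2.33 for C8b and -3.28 for C9 in KO mice. Hc changed by -1.56 ± 0.21 and -1.46 ± 0.20.

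**Figure D2:**
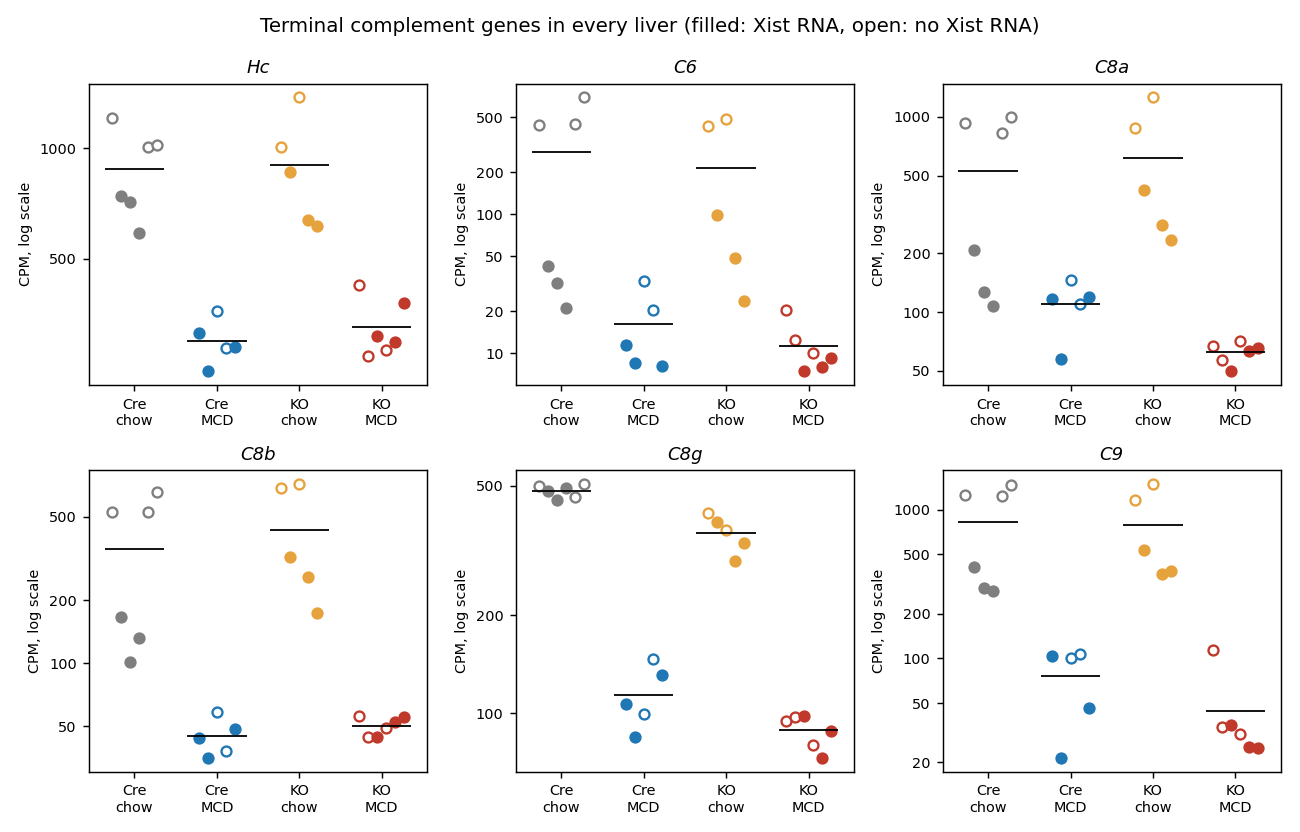
CPM on a log scale (y axis) of the terminal complement genes in each of 22 livers (points) by group (x axis), with the group mean as a line. Filled points hold Xist RNA and open points do not. On chow the open points of C6 lie far above the filled ones in both genotypes, and on MCD all livers lie low. The open points on chow are also the 5 libraries with a low share of uniquely mapped reads.

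The spread of the terminal genes other than C8g on chow followed Xist RNA. It followed the share of uniquely mapped reads equally, as the 5 chow livers without Xist RNA were the 5 of low share. Among Cre mice on chow, C6 was at 21.2 to 42.3 CPM in the 3 livers with Xist RNA and at 437 to 692.8 CPM in the 3 without. Among KO mice on chow it was at 23.9 to 98.8 CPM in 3 livers and at 430.1 to 481.2 CPM in 2. The highest of those 3 was KO chow 2, which also held Ddx3y RNA. A fit of 8 groups by genotype, diet and Xist status, made after the data were seen, called 10 of 41 members between livers without and with Xist RNA on chow (11.8% of all genes, 5.38% higher and 6.46% lower). Livers without Xist RNA had higher C6 (3.52 ± 0.29), C8a (2.20 ± 0.21), C9 (1.81 ± 0.33), C8b (1.79 ± 0.16), Hc (0.71 ± 0.14), C2 (0.38 ± 0.11) and C1ra (0.35 ± 0.094). They had lower Mbl2 (-0.90 ± 0.23), C3 (-0.55 ± 0.15) and F7 (-0.38 ± 0.11), the protease that starts coagulation with tissue factor. C8g, whose product joins those of C8a and C8b, was not called (0.12 ± 0.12).

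On MCD the same fit called 0 of 41 members between livers without and with Xist RNA, where edgeR called 0.434% of all genes, and 7 members had an unadjusted p under 0.05. The MCD fall was called for 35 members in livers with Xist RNA (56.9% of all genes called, 28.2% lower and 28.7% higher) and for 33 in livers without (50.4%, 24.4% and 26%). The response differed for 3 members, each with the larger fall in livers without Xist RNA, where 7.48% of all genes differed (4.88% higher and 2.6% lower). They were C6 (difference -2.37 ± 0.41, adjusted p = 0.0018), C8a (-1.94 ± 0.29, adjusted p = 5.7e-04) and C8b (-1.71 ± 0.23, adjusted p = 1.4e-04), all by edgeR. In the chow livers this split was also the split by uniquely mapped share, so the 2 cannot be told apart here.

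Of the complement inhibitors, C1 inhibitor (Serping1), which blocks the proteases of C1 and of the contact system, was at 726.8 to 1065 CPM (median 899.1 CPM) in Cre mice on chow and at 221.5, 181.9, 271.6, 235.9 and 225.1 CPM on MCD. It changed by -1.97 ± 0.12 in Cre mice and -1.94 ± 0.11 in KO mice, with no overlap between diets. Factor I (Cfi), which cleaves C3b and C4b, changed by -0.50 ± 0.11 and -0.68 ± 0.10. Among livers without Xist RNA alone it was not called in Cre mice (-0.41, adjusted p = 0.096).

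In the contact system, factor XI (F11) and plasma prekallikrein (Klkb1) changed by -1.65 ± 0.17 and -1.79 ± 0.17 in Cre mice and by -1.41 ± 0.16 and -1.39 ± 0.17 in KO mice. Factor XII (F12), which starts this arm, changed by -0.56 ± 0.09 and -0.45 ± 0.089, and among livers with Xist RNA alone it was not called in KO mice (-0.29, adjusted p = 0.066). Kininogen (Kng1), their cofactor and the source of bradykinin, was at 2486 to 3116 CPM (median 2845 CPM) in Cre mice on chow and at 2484, 2146, 2182, 2295 and 2837 CPM on MCD. It was called in neither genotype (-0.25 ± 0.12, adjusted p = 0.092, and -0.10 ± 0.12, adjusted p = 0.51).

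Among the genes that generate thrombin, the 4 proteases were called lower in both genotypes and the cofactor was not. Prothrombin (F2) was at 2289 to 2655 CPM (median 2432 CPM) in Cre mice on chow and at 1362, 1351, 1527, 1376 and 1273 CPM on MCD, and at 1975, 2361, 2019, 2178 and 2127 CPM on chow and 1299 to 1637 CPM (median 1448 CPM) on MCD in KO mice. Neither pair of groups overlapped, and the falls were 1.77-fold (-0.83 ± 0.081, adjusted p = 2.9e-08) and 1.45-fold (-0.53 ± 0.079, adjusted p = 1.5e-05). Factors VII, IX and X (F7, F9 and F10) changed by -1.58 ± 0.13, -1.03 ± 0.15 and -0.84 ± 0.096 in Cre mice and by -1.10 ± 0.13, -0.79 ± 0.15 and -0.67 ± 0.094 in KO mice. Factor V (F5), the cofactor with which factor Xa cuts prothrombin, was at 481.6 to 600.6 CPM (median 542.3 CPM) in Cre mice on chow and at 493.1, 501.1, 617.8, 451.7 and 506.4 CPM on MCD. It was called in neither genotype (-0.08 ± 0.099, adjusted p = 0.5, and 0.12 ± 0.099, adjusted p = 0.35).

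The 3 fibrinogen chains, which lie together on chromosome 3 (Fgg at chr3:83007724-83015049, Fga at chr3:83026076-83033627 and Fgb at chr3:83040141-83049863) and are assembled into 1 protein, were lower to similar extents. Fga was at 5889 to 7852 CPM (median 6533 CPM) in Cre mice on chow and at 3030, 2575, 2880, 2681 and 3352 CPM on MCD, and at 5706, 6455, 6562, 5023 and 4652 CPM on chow and 2032 to 3622 CPM (median 2448 CPM) on MCD in KO mice. The falls in Cre mice were 2.29-fold for Fga (-1.20 ± 0.15), 2.13-fold for Fgb (-1.09 ± 0.15) and 2.35-fold for Fgg (-1.23 ± 0.17). In KO mice they were 2.12-fold (-1.09 ± 0.15), 2.15-fold (-1.10 ± 0.15) and 2.13-fold (-1.09 ± 0.16). No pair of diet groups overlapped for any chain. Per kilobase of exon, Fgb stood at 0.745 to 0.894 times Fga and Fgg at 0.971 to 1.17 times Fga over the 22 livers. F13b, which carries the enzyme that crosslinks fibrin, changed by -1.25 ± 0.18 and -0.80 ± 0.17, and among livers without Xist RNA alone it was not called in KO mice (-0.75, adjusted p = 0.094).

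**Figure D3:**
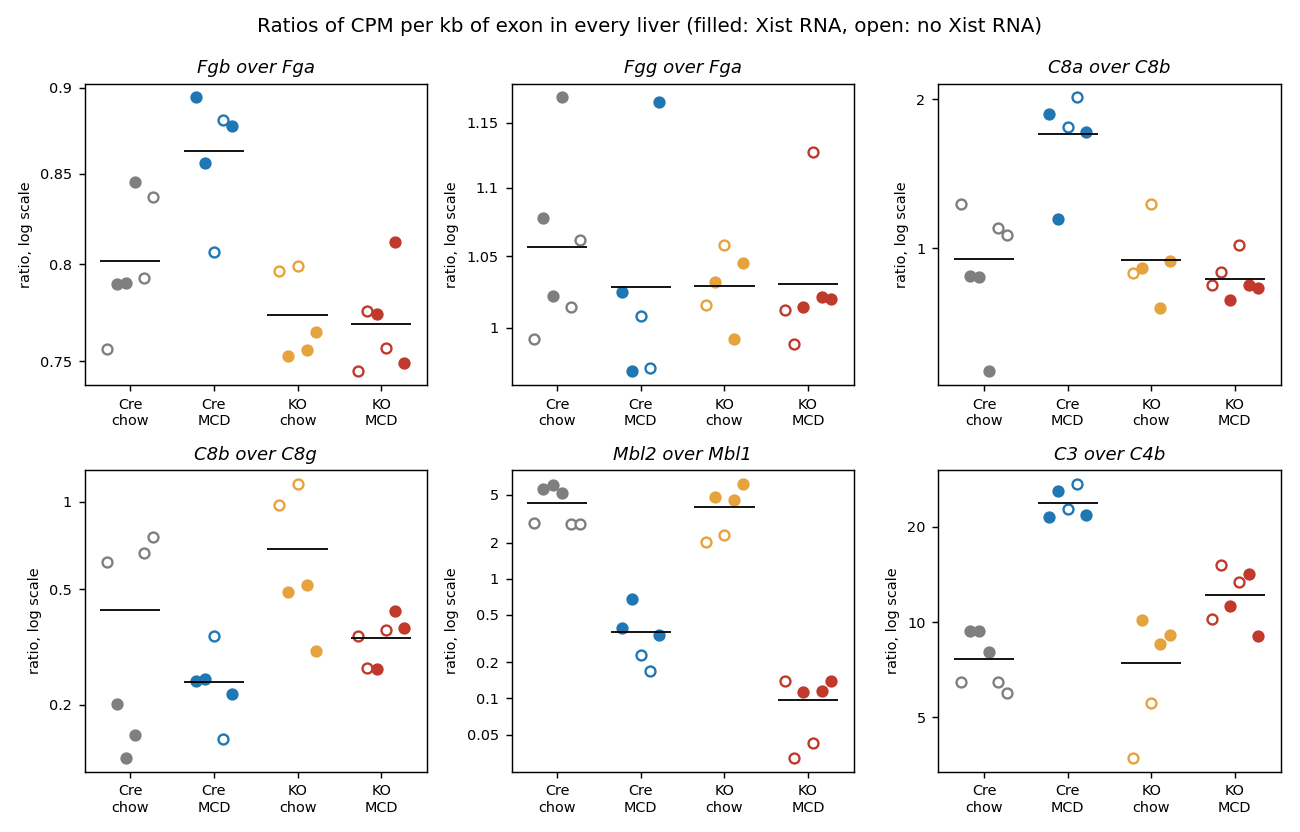
Ratios of CPM per kilobase of exon on log scales (y axes) in each of 22 livers (points) by group (x axes), with the group mean as a line. Filled points hold Xist RNA and open points do not. The fibrinogen ratios stay near 1 in every liver, while Mbl2 over Mbl1 is lower and C3 over C4b higher on MCD.

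All 6 anticoagulant and fibrinolysis genes were called lower in both genotypes. Plasminogen (Plg), the precursor of the enzyme that dissolves fibrin, was at 3231 to 3976 CPM (median 3766 CPM) in Cre mice on chow and at 1256, 666, 1642, 1230 and 1280 CPM on MCD, and changed by -1.59 ± 0.16 in Cre mice and -1.25 ± 0.15 in KO mice. Antiplasmin (Serpinf2), which inhibits that enzyme, changed by -0.73 ± 0.093 and -0.99 ± 0.091. The inhibitors of thrombin, antithrombin (Serpinc1) and heparin cofactor II (Serpind1), changed by -0.91 ± 0.091 and -0.77 ± 0.13 in Cre mice and by -0.64 ± 0.089 and -0.64 ± 0.13 in KO mice. Serpind1 was not called in Cre mice among livers without Xist RNA alone (-0.49, adjusted p = 0.051). Protein C (Proc) and its cofactor protein S (Pros1) changed by -1.0 ± 0.11 and -0.97 ± 0.13 in Cre mice and by -0.65 ± 0.11 and -1.20 ± 0.13 in KO mice.

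The 250 bases before the start of transcription are shown for the gene that fell farthest (Mbl2), for a pair of fibrinogen chains that fell together (Fgb and Fgg) and for a factor that was not called (F5). They were read from RefSeq on GRCm38.p6, 5′ to 3′ on the gene's strand, and capitals mark matches on either strand to the core of the HNF1 site (GTTAAT) or to a C/EBP site (TTGCNNAA).
Mbl2, chr19:30232678-30232927, plus strand: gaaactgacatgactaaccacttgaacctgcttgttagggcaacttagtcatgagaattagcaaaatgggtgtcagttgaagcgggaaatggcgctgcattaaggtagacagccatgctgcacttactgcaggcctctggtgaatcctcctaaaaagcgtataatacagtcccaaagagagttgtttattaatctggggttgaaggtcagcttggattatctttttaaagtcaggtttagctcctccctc
Fgb, chr3:83049864-83050113, minus strand: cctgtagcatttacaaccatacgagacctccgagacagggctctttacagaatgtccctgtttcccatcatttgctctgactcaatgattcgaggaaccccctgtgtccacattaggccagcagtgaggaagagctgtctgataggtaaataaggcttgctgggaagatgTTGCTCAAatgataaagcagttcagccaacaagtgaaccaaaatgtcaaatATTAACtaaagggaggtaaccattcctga
Fgg, chr3:83007474-83007723, plus strand: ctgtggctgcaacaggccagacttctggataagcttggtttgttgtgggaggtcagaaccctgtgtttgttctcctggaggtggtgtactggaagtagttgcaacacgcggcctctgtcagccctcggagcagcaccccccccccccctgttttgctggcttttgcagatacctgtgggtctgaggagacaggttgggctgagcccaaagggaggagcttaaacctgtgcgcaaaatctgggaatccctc
F5, chr1:164151585-164151834, plus strand: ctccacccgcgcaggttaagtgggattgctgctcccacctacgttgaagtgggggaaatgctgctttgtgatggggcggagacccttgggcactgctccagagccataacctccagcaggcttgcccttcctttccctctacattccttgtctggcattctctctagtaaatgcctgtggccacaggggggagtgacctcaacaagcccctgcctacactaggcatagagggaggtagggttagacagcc
Such a window was found for 32 of the 42 members. The HNF1 core, bound by a factor that keeps hepatocyte genes on, was present in 8 of 32 (25% against 7.49% of 27025 genes), namely C1ra, Hc, C8a, C8b, Cfp, Fga, Fgb and F13b. The C/EBP site was present in 8 of 32 (25% against 10.8%), namely C1s1, C3, C9, F11, Klkb1, F9, Fga and Fgb. Fgb held both, while the windows of Mbl2, Fgg and F5 held neither. The STAT3 palindrome (TTCCNGGAA) was found in Fga and Pros1 (6.25% against 1.09%), the core of the interleukin-6 response element (CTGGGAA) in 5 members (15.6% against 10.4%) and the PU.1 site (GAGGAAG) in C1qc and Fgb (6.25% against 12%). The E-box CACGTG (0% against 6.86%), the full HNF1 palindrome (0% against 0.0111%), an HNF4 site (CAAAGTCCA, 0% against 0.451%) and an NF-kB site (0% against 0.159%) had no match. These are matches of letters on either strand, and overlaps between motifs were kept.

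The genotypes were compared on each diet. On chow 2 of 41 members were called between KO and Cre mice, against 8.62% of all genes (5.52% higher and 3.1% lower). C2 was higher in KO mice, at 96.6, 71.1, 89.3, 79.1 and 65.4 CPM against 43.7 to 60.7 CPM (median 51.5 CPM) in Cre mice, by 0.62 ± 0.17 (adjusted p = 0.025). C8g was lower, at 412, 387.1, 366.1, 292.7 and 334.2 CPM against 453 to 506 CPM (median 487.2 CPM), by -0.43 ± 0.12 (adjusted p = 0.03). Ranges did not overlap for these and for C1s1 (higher), Klkb1 and F10 (both lower), 5 members in all, against 6.94% of all genes (4.01% higher and 2.93% lower). The adjusted p from edgeR was 0.17 for C1s1, 0.089 for Klkb1 and 0.16 for F10. Leaving out 1 library at a time lost the C2 call in 5 and the C8g call in 5 of 22 fits, and neither was called without KO chow 3 or without KO chow 4. Of 12 other settings, the C2 call was lost under 2, without the 5 chow libraries of low uniquely mapped share (0.66, adjusted p = 0.13) and among livers without Xist RNA alone (0.68, adjusted p = 0.12), and the C8g call under 4 (adjusted p up to 0.52). Without the 5 chow libraries 2 members were called (3.47% of all genes), neither of them C2 or C8g. C2 and Cfb share exons with the readthrough gene Gm20547, which had a mean count of 0.

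On MCD 7 of 41 members were called between KO and Cre mice, against 16.6% of all genes, 3 higher (8.06%) and 4 lower (8.53%) in KO mice. Mbl2 was lower in every KO mouse than in every Cre mouse, by 3.3-fold (-1.72 ± 0.35, adjusted p = 0.0019). C3 was also lower without overlap, by 1.54-fold (-0.62 ± 0.18, adjusted p = 0.018). Antiplasmin (Serpinf2) was at 422.9 to 552.5 CPM (median 460.7 CPM) in KO mice and at 709.6, 566.8, 637.8, 750.1 and 718.3 CPM in Cre mice, a difference without overlap of -0.52 ± 0.091 (adjusted p = 5.5e-04). C8g was lower by -0.36 ± 0.12 (adjusted p = 0.044) with overlapping ranges, a call lost in 10 of 22 fits without 1 library (adjusted p up to 0.17) and under 7 of 12 other settings (adjusted p up to 0.23). Masp2 (chr4:148602554-148615499) was higher in every KO mouse, at 127.3 to 175.1 CPM (median 139.8 CPM) against 88.8, 80.2, 102.8, 89.9 and 94.8 CPM in Cre mice, by 1.57-fold (0.65 ± 0.087, adjusted p = 2.7e-05). C2 was higher by 0.62 ± 0.17 (adjusted p = 0.016) and F7 by 0.41 ± 0.13 (adjusted p = 0.035), with overlapping ranges in both. The F7 call was lost in 7 of 22 fits without 1 library (adjusted p up to 0.088) and under 3 of 12 other settings (adjusted p up to 0.48), and among livers without Xist RNA alone C2 differed by 0.21 (adjusted p = 0.63). Ranges did not overlap for 4 members, Masp2, Mbl2, C3 and Serpinf2, against 8.61% of all genes (5.08% higher and 3.53% lower). Among livers without Xist RNA alone, Masp2 (0.50, adjusted p = 0.051), Mbl2 (-1.62, adjusted p = 0.071) and C3 (-0.75, adjusted p = 0.10) were not called, and among livers with Xist RNA alone C3 was not (-0.53, adjusted p = 0.053). Without Cre MCD 3, the liver with muscle RNA, 11 members were called (17% of all genes), and without KO MCD 2 also 11 (16.5% of all genes).

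**Figure D4:**
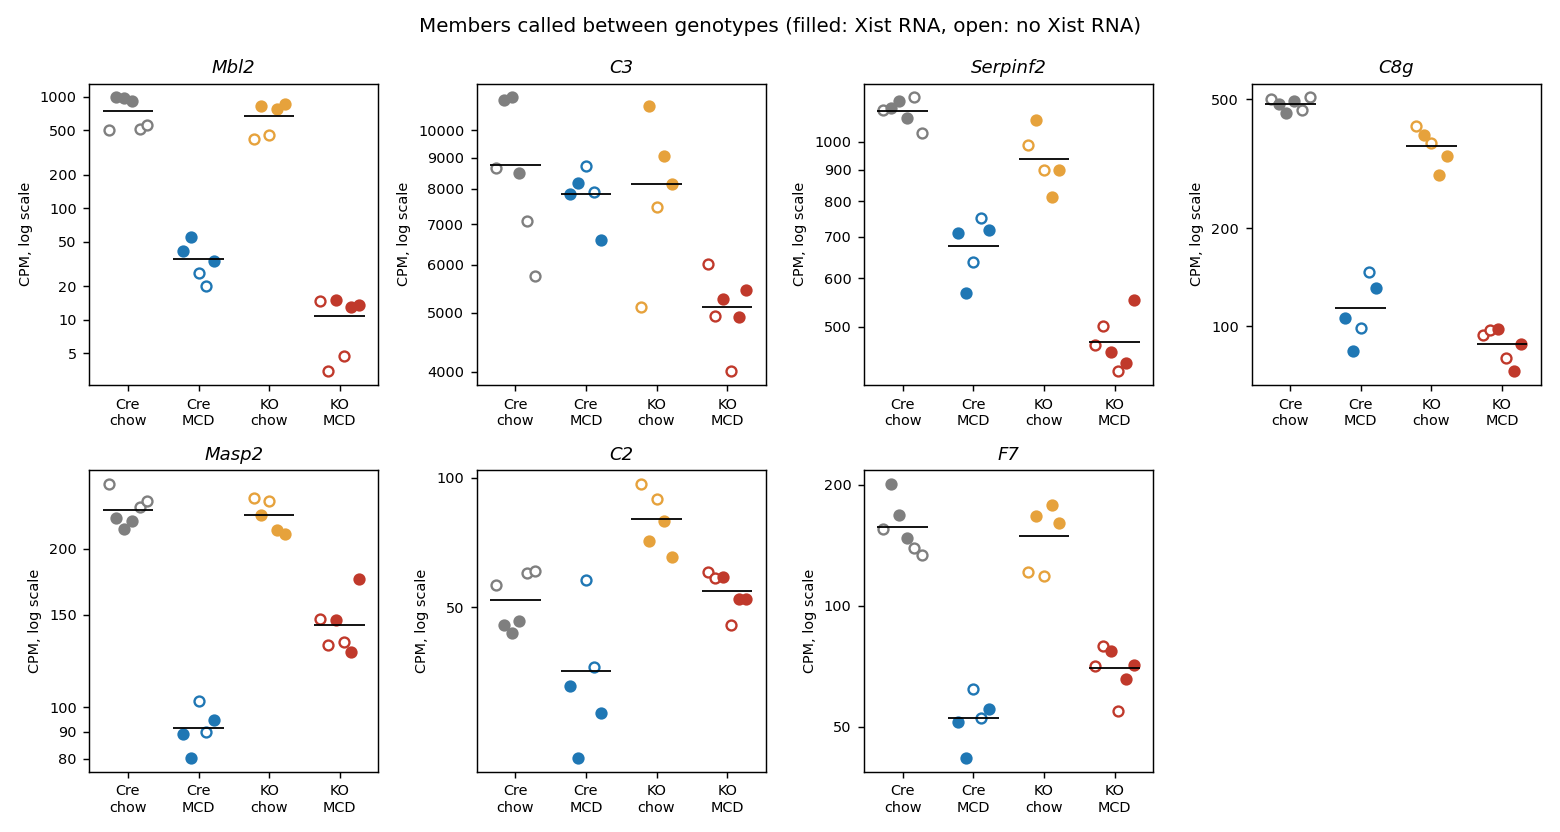
CPM on a log scale (y axis) of members called between genotypes in each of 22 livers (points) by group (x axis), with the group mean as a line. Filled points hold Xist RNA and open points do not. On MCD the KO livers lie below the Cre livers for Mbl2, C3 and Serpinf2 and above them for Masp2, without overlap.

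For the interaction of genotype and diet 2 of 41 members were called, against 8.83% of all genes (3.29% higher and 5.54% lower). Masp2 was at 218.3 to 265.3 CPM (median 234.1 CPM) in Cre mice and 250, 231.4, 246.4, 216.7 and 213.5 CPM in KO mice on chow, and its MCD response was smaller in KO mice by 0.69 ± 0.12 (adjusted p = 0.0021), a call kept in all 22 fits without 1 library. Exons of Masp2 share 54.9% of their bases with Tardbp on the other strand, and whether the counting used strand is not given in the sources used here. Tardbp differed between genotypes on MCD by -0.10 ± 0.11 (adjusted p = 0.58). Mbl2 fell farther in KO mice, by -1.58 ± 0.49 (adjusted p = 0.046), and this call was lost in 12 of 22 fits without 1 library, Cre or KO and on either diet (-1.35 to -1.72 over the 22 fits, adjusted p up to 0.085) and under 5 of 11 other settings, among them without the 5 chow libraries of low uniquely mapped share (-1.51, adjusted p = 0.11). Among livers without Xist RNA alone neither was called (Masp2 0.49, adjusted p = 0.32, and Mbl2 -1.38, adjusted p = 0.44). The interaction and the genotype difference on MCD share the MCD livers.

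The C1q chains, whose genes lie in a row on chromosome 4, were called lower on MCD in neither genotype with all 22 livers in the fit. C1qa was at 44.3 to 79.3 CPM (median 64.4 CPM) in Cre mice on chow and at 74.1, 66.3, 48.7, 86.7 and 74.95 CPM on MCD, and at 86.8, 69.4, 69.8, 63.2 and 64.5 CPM on chow and 41.3 to 86.1 CPM (median 50.04 CPM) on MCD in KO mice. C1qb was at 43.9 to 71.9 CPM (median 63.2 CPM) in Cre mice on chow and at 89.8, 81.4, 64.2, 109.3 and 83.2 CPM on MCD, and at 78.4, 63.2, 70.2, 59.8 and 65.7 CPM on chow and 46.3 to 99.95 CPM (median 54.1 CPM) on MCD in KO mice. C1qc was at 45.5 to 70.8 CPM (median 61.8 CPM) in Cre mice on chow and at 74.2, 69.6, 53.2, 91.1 and 78.8 CPM on MCD, and at 79.1, 62.3, 64.3, 54.9 and 65.2 CPM on chow and 39.3 to 86.1 CPM (median 50.2 CPM) on MCD in KO mice. The ranges of each chain overlapped in all 4 pairwise comparisons, and the KO MCD range was widened at its top by KO MCD 2.

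In Cre mice C1qb was higher on MCD by 0.47 ± 0.17 (adjusted p = 0.024), while C1qa (0.15 ± 0.18, adjusted p = 0.47) and C1qc (0.28 ± 0.17, adjusted p = 0.16) were not called. The C1qb call was lost without Cre chow 5 or without Cre MCD 4 (adjusted p = 0.061 and 0.086). It was also lost without the 5 chow libraries of low uniquely mapped share (0.30, adjusted p = 0.25), among livers without Xist RNA alone (0.70, adjusted p = 0.074) and without the 2 livers with Xist and Ddx3y RNA (0.46, adjusted p = 0.051). None of the 3 chains was called in KO mice, where the differences were -0.32 ± 0.18 for C1qa, -0.12 ± 0.17 for C1qb and -0.21 ± 0.17 for C1qc. Without KO MCD 2, C1qa (-0.48, adjusted p = 0.019) and C1qc (-0.38, adjusted p = 0.049) were called lower on MCD in KO mice, and among livers with Xist RNA alone all 3 chains were (-0.53, -0.35 and -0.41, adjusted p = 0.0013, 0.0092 and 0.012). Among livers without Xist RNA alone none was called (-0.23, -0.01 and -0.12, adjusted p = 0.60, 0.98 and 0.78). Between genotypes on MCD the differences were -0.31 ± 0.18, -0.47 ± 0.17 and -0.39 ± 0.17 (adjusted p = 0.25, 0.069 and 0.13, KO minus Cre). Without KO MCD 2, all 3 chains were called lower in KO mice on MCD (-0.47, -0.66 and -0.55, adjusted p = 0.047, 0.0033 and 0.015). C1qb was also called lower without Cre MCD 3 (-0.55, adjusted p = 0.034), with limma-voom (-0.50, adjusted p = 0.047) and with DESeq2 (-0.47, adjusted p = 0.045). Among the livers with Xist RNA, which do not include KO MCD 2, all 3 were also called lower (-0.65, -0.78 and -0.70). Among livers without Xist RNA none was, with differences of -0.01, -0.23 and -0.12 (adjusted p = 0.99, 0.72 and 0.86). For the interaction of genotype and diet the values were -0.48 ± 0.25, -0.59 ± 0.24 and -0.50 ± 0.24, none called (adjusted p = 0.25, 0.13 and 0.21). C1qb (-0.78, adjusted p = 0.016) and C1qc (-0.66, adjusted p = 0.048) were called without KO MCD 2, and C1qa (-0.52, adjusted p = 0.042) and C1qb (-0.64, adjusted p = 0.012) among livers with Xist RNA alone. None was called among livers without Xist RNA alone (-0.59, -0.72 and -0.60, adjusted p = 0.65, 0.55 and 0.64).

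Some markers of macrophages were called with diet and genotype, beside 57.5% of all genes on MCD in Cre mice (29.3% higher and 28.2% lower), 45% in KO mice, 8.62% between genotypes on chow, 16.6% between genotypes on MCD and 8.83% for the interaction. The sum of 10 pan-macrophage markers, led by Lyz2, was 321.3 ± 46.7 CPM (mean ± SD) in Cre mice on chow, 547.3 ± 114.2 on MCD, 368.8 ± 40.8 in KO mice on chow and 358.4 ± 100.9 on MCD. Of the 10, 5 were called higher and 1 lower on MCD in Cre mice and 1 higher and 2 lower in KO mice, and between genotypes on MCD 4 were lower in KO mice (Cd68, Ctss, Lyz2 and Tyrobp). The sum of 10 markers of monocyte-derived macrophages, led by Spp1, which bile duct cells also express, was 72.3 ± 14.6, 418.5 ± 103.4, 151.5 ± 52.1 and 326 ± 123.1 CPM in the same order. All 10 were called higher on MCD in Cre mice and 6 in KO mice, and for 7 the response was called smaller in KO mice. Between genotypes 5 of these 10 were called higher in KO mice on chow and 4 lower on MCD. Of 10 Kupffer cell markers, led by Slc40a1, 1 was higher and 5 were lower on MCD in Cre mice and 1 higher and 4 lower in KO mice, with sums of 763.6 ± 117.7, 667.3 ± 161.7, 855.7 ± 107 and 774.7 ± 96.4 CPM. On MCD 3 of the Kupffer cell markers (Slc40a1, Timd4 and Cd163) were called higher in KO than in Cre mice and none lower. No marker on these 3 lists was at 0 in all livers, and the part of macrophage numbers in the C1q values was not tested.

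**Figure D5:**
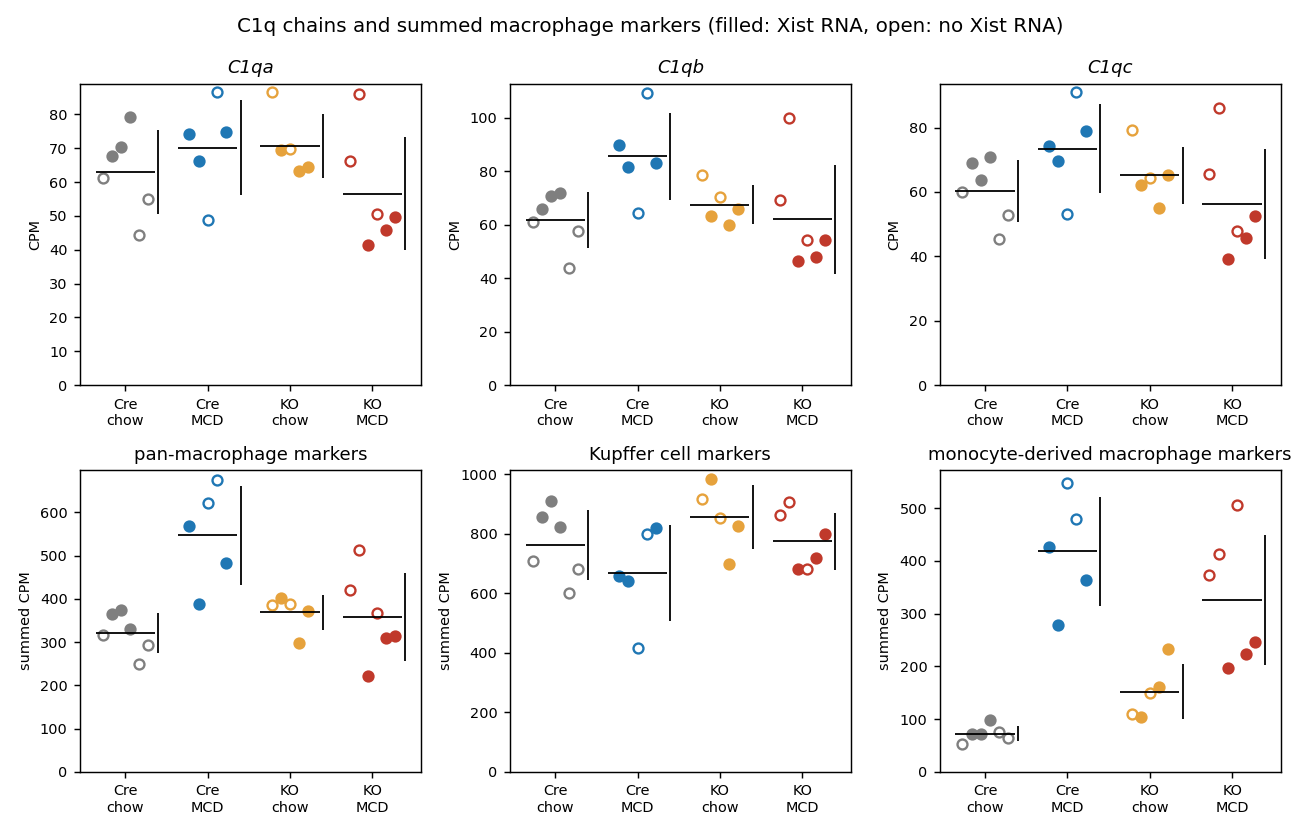
CPM of the C1q chains and summed CPM of macrophage marker lists (y axes, from 0) in each of 22 livers (points) by group (x axes), with the group mean as a horizontal line and the SD as a vertical one. Filled points hold Xist RNA and open points do not. The C1q panels overlap between groups, while the monocyte-derived markers are higher on MCD than on chow in every Cre mouse.

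The other complement factors made outside hepatocytes were low. Properdin (Cfp), which stabilises the alternative convertase and is made by myeloid cells, was at 25.1 to 45.7 CPM (median 37.9 CPM) in Cre mice on chow and 29, 31, 13.9, 36 and 40.2 CPM on MCD, and at 38.5, 35.6, 31.1, 23.1 and 32.3 CPM on chow and 19.9 to 37.9 CPM (median 24.2 CPM) on MCD in KO mice. It was called in none of the 5 comparisons by edgeR. Factor D (Cfd), the alternative pathway protease made by adipocytes, had at most 7 counts in 21 libraries and 77 counts in Cre MCD 3. That library also had the highest sum of adipocyte markers, 73.8 CPM against at most 50.7 CPM in the others.

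Other genes of the cascades were called in both directions, and the counts for these lists stand beside 57.5% of all genes called on MCD in Cre mice and 45% in KO mice. Of 28 further complement genes tested, 7 were called higher and 17 lower on MCD in Cre mice, and 3 higher and 15 lower in KO mice. The complement receptor subunit Itgax, also on the list of monocyte-derived markers, rose by 4.42 ± 0.42 in Cre mice and 1.54 ± 0.39 in KO mice, and the C5a receptor C5ar1 by 2.59 ± 0.32 and 1.24 ± 0.32. Both were lower in KO than in Cre mice on MCD, by -1.63 ± 0.35 and -1.32 ± 0.29. The C3a receptor C3ar1 rose by 1.76 ± 0.23 in Cre mice, and its response was smaller in KO mice by -1.33 ± 0.33 (adjusted p = 0.015). The pore inhibitor Cd59b changed by -2.5 ± 0.26 and -1.70 ± 0.26, and on chow it was lower in KO than in Cre mice by -1.19 ± 0.24.

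Of 27 further coagulation and fibrinolysis genes tested, 13 were higher and 10 lower on MCD in Cre mice, and 7 higher and 8 lower in KO mice. Tissue plasminogen activator (Plat), which activates plasminogen, rose by 4.19 ± 0.44 in Cre mice and 1.87 ± 0.44 in KO mice. The A subunit of factor XIII (F13a1), the partner of F13b, rose by 4.09 ± 0.46 and 1.69 ± 0.41. The urokinase receptor (Plaur) rose by 3.51 ± 0.35 and 2.34 ± 0.37. All 3 were lower in KO than in Cre mice on MCD, by -1.96 ± 0.37, -0.95 ± 0.32 and -1.14 ± 0.30. The response of Plat and of F13a1 was smaller in KO mice (-2.31 ± 0.63, adjusted p = 0.025, and -2.40 ± 0.67, adjusted p = 0.029). Of 11 stellate cell markers, 9 were called higher on MCD in Cre mice (57.5% of all genes called), and 2 higher and 1 lower in KO mice (45%). On MCD 6 of them were lower in KO than in Cre mice (16.6%). Of 4 neutrophil markers tested, 4 were higher on MCD in Cre mice and 3 in KO mice. The part of these cells in the rises was not tested.

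The vitamin K cycle gives prothrombin and factors VII, IX and X the residues with which they bind membranes. All 6 of its genes were called in Cre mice, 4 higher and 2 lower, where 57.5% of all genes were called. In KO mice 4 were, 3 higher and 1 lower, where 45% of all genes were called. The carboxylase Ggcx changed by -0.93 ± 0.096 in Cre mice and -0.71 ± 0.094 in KO mice, and the quinone reductase Aifm2 rose by 1.56 ± 0.11 and 1.90 ± 0.11. Vkorc1, the target of warfarin, changed by -0.71 ± 0.11 in Cre mice, and its response differed in KO mice by 0.48 ± 0.15 (adjusted p = 0.047). Of 18 liver transcription factors, 2 were higher and 11 lower on MCD in Cre mice (57.5% of all genes called). In KO mice 1 was higher and 8 were lower, 9 of 18 where 45% of all genes were called. Onecut1 (-2.77 ± 0.63 and -2.31 ± 0.60) and Foxa2 (-1.44 ± 0.21 and -0.68 ± 0.21) fell in both genotypes, and Atf5 rose (1.0 ± 0.16 and 1.55 ± 0.16). Of 16 acute-phase genes, 5 were higher and 6 lower on MCD in Cre mice, 11 of 16 where 57.5% of all genes were called. In KO mice 2 were higher and 5 lower, 7 of 16 where 45% of all genes were called.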

How the data were processed

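Libraries were made with the KAPA mRNA kit and adapters with molecular identifiers, and sequenced from 1 end. The authors trimmed reads with Trimmomatic, aligned them to GRCm38 with STAR and deposited raw counts per gene from HTSeq, as whole numbers without normalization. Collapsing on molecular identifiers, the annotation release and the use of strand are not given in the sources used here, so depth precision covers counting error only. None of 50 pairs of libraries within a group was identical.

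Genes with a mean of at least 10 counts (14062 of 55573) entered 1 edgeR 4.0.16 model of the 4 groups in R 4.3.3, with TMM factors and quasi-likelihood tests, adjusted by Benjamini-Hochberg over every gene tested. Scripts were tested on simulated data. Positions and exon lengths come from GENCODE M21 and promoters from RefSeq. Nothing says which mice shared a litter or cage. Alternatives were limma-voom (limma 3.58.1), DESeq2 1.42.0, RLE factors, other count filters, only the groups compared, left-out libraries, Xist status as a covariate and the replicate number as a block. Fits by Xist status and without the 2 livers with Xist and Ddx3y RNA were added after the data were seen.

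The members and the lists were chosen with earlier results of these data known. The rule named the C1q chains, Cfd, Cfp, C3, the fibrinogen chains and F2, the 4 called hepatocyte-made members with the largest change in each pairwise comparison, members called for the interaction, Flcn, the 3 called genes with the largest change in each other list and the most abundant gene of each cell type list. Values of other members were added to account for each, and some genes named by the rule on the other lists are not reported here.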

Additional observations from a re-analysis of the deposited data

Results flagged for a closer look

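C9 in KO MCD 1 stood at 114 CPM, with the other 5 livers of the group at 25.1, 25.3, 30.9, 34.4 and 35.5 CPM, and its gap to the nearest was 0.772 of the range of the group. Of 68 groups of values examined in this way 1 had such a liver, where chance gives about 1 in 20. Masp2 and Mbl2 differed between genotypes in their MCD response, by 0.69 and -1.58 on the log2 scale (KO minus Cre). C6, C8a and C8b differed in their MCD response between livers without and with Xist RNA, by -2.37, -1.94 and -1.71.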

How the results depend on the processing

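The tally under other settings covered results called in the main fit, and C1q chains in every comparison but that between genotypes on chow. Of 3123 such values, 3015 kept their direction and their side of the threshold, 88 lost a call, 18 gained one and 2 reversed. All 18 gains were of C1q chains, and gains by other members were not tallied. Without the 5 chow libraries of low uniquely mapped share, 2 members not called in the main fit were called between genotypes on chow. Both reversals were of C1qa on MCD in Cre mice, never called: -0.0517 without the 5 chow libraries of low uniquely mapped share and -0.0123 in livers with Xist RNA alone. When 1 library was left out, 34 to 36 members were called on MCD in Cre mice (54.2% to 58.5% of all genes). In KO mice 35 to 37 were (39.9% to 47.2%). Between genotypes 5 to 11 were called on MCD (12.6% to 17.5%) and 0 to 3 on chow. On chow 0 were called without KO chow 3 or KO chow 4 (7.07% and 4.76%). There 3 were called without Cre MCD 2 or KO chow 2 (9.84% and 8.69%). For the interaction 1 to 4 were called, with 4 without KO MCD 2 (9.61%) and 1 in fits with 5.78% to 9.92%. For the interaction, 1 member was called with a mean count of at least 1 (5.63% of all genes). Without the 2 livers with Xist and Ddx3y RNA 1 was called (4.87%), and the cause was not tested in either case. A fit of only the chow groups called 4 members between genotypes (7.55% of all genes), and the cause was not tested. Livers with Xist RNA alone gave 5 for the interaction (8.65% of all genes). Livers without it, with fewer samples, gave 0 on chow, 2 between genotypes on MCD and 0 for the interaction, where 2.4%, 5.16% and 0.451% of all genes were called, and 30 and 32 on MCD in Cre and KO mice, where 33.5% and 20.8% were. With limma-voom and DESeq2, 8 and 9 members were called between genotypes on MCD, where 17% and 18.5% of all genes were called. C1qb was among them (adjusted p = 0.047 and 0.045).

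With the replicate number as a block, 1 member was called between genotypes on chow (6.18% of all genes) and 1 for the interaction (3.93%). The calls of C8g on both diets, F7 on MCD and Mbl2 for the interaction were lost. Deviations of same-numbered mice had mean correlations of -0.0842 and -0.0112 between diets in Cre and KO mice. Between genotypes the means were 0.0614 on chow and 0.129 on MCD, and in no comparison were all pairs over 0.1. On chow the pairs ran from -0.5513 to 0.47, positive where both livers had the same Xist status and negative where not. On MCD they ran from 0.06209 to 0.2625. These values cannot tell whether the numbers pair the mice, and the main fit used no pairing.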
